A study of Mus musculus with 16 samples.

Results

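The subject is 10 genes whose products modify, escort, trim or crosslink collagen, measured in whole mouse hearts after repeated encounters with an aggressor. The genes are the lysyl oxidase family (Lox, Loxl1, Loxl2, Loxl3 and Loxl4), the prolyl 4-hydroxylase subunits P4ha1 and P4ha3, the lysyl hydroxylase Plod2, the collagen chaperone Serpinh1 and the procollagen C-proteinase enhancer Pcolce. They are the 10 names of this pathway taken from 34844 names on the array, by an exact match of the name in the scanner files, and 17 of the 55681 probes carry them. All 10 passed the filter on dim probes, but Lox and Loxl4 only through groups in which they were high. They were picked with their levels on these arrays already known, so their own levels and differences are given as a description and support no test.

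Newly made procollagen chains are hydroxylated on proline and lysine inside the endoplasmic reticulum, and prolyl 4-hydroxylation lets the triple helix hold at body temperature. Serpinh1, also known as HSP47, binds the folded helix and leaves it before secretion. Outside the cell the end pieces are cut off, Pcolce speeds the cut at the carboxyl end, and lysyl oxidases then oxidise lysines and hydroxylysines so that neighbouring molecules bond covalently. Lysyl oxidases act on elastin as well, and in heart muscle the crosslinks they make are known to set the stiffness of the matrix between the muscle cells.

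The study models posttraumatic stress disorder by social defeat. All 16 hearts came from C57BL/6 mice, 4 in each of 4 groups, with no genetic change or drug in any group. The control mice were kept in wire mesh boxes in a cage that held no aggressor. Mice of T1R1, T2R1 and T3R1 were exposed to aggressor mice for 1, 2 and 3 days, and each of these groups then rested for 1 day. The labels place the controls in the arm of 2 days, so T1R1 and T3R1 had no control of their own duration, and the general treatment text gives longer exposures than the group names, which were followed. Each heart gave 1 RNA sample, which was labelled with Cy3, a fluorescent dye, and hybridised alone to a 1-colour array.

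Values are log2 intensities relative to the 75th percentile of the same array, so 0 is a bright spot and a difference of 1 is a doubling. Between 46.5% and 67.1% of the probes of an array were well above background. All 6 cardiomyocyte markers tested, Myh6, Tnni3, Tnnt2, Actc1, Ryr2 and Myl2, were above background, as heart tissue should have them. The number of arrays limits the precision of every value. The T3R1 and control arrays sat on 1 slide and the T1R1 and T2R1 arrays on the other, so T3R1 against control and T2R1 against T1R1 are comparisons within a slide. In the other comparisons slide and exposure cannot be told apart. Nothing in the labels groups the mice by litter or cage.

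Control replicate 1 stood apart from the other controls and enters every comparison with control. Its 75th percentile lay at 547 scanner units, against 257 to 273 in control replicates 2 to 4, and across all features it correlated at 0.988 on average with T3R1, against 0.970 with control replicates 2 to 4. Markers of several cell types moved with it. Proliferation markers, 5 tested of 6 on the array, averaged 3.88 to 4.51 on the T3R1 arrays and 4.58 on control replicate 1. On control replicates 2 to 4, to which these values are relative, they averaged -0.37 to 0.68. Macrophage markers, 4 tested of 4 on the array, lay at 0.99 to 1.31 on the T3R1 arrays and at 1.34 on control replicate 1. The airway gene Scgb1a1, the only lung marker of 4 that was tested, stood at 5.63 on T3R1 replicate 1 and at 5.44 on control replicate 1, and between -3.75 and -1.36 on the other 14 arrays. The part of these in the results was not tested. Differences of the 10 genes from control, and the counts of list genes, are therefore given with and without control replicate 1.

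Promoter sequence was at hand for 5 of the 10 genes: Loxl4, P4ha1, P4ha3, Pcolce and Serpinh1. Those printed here belong to Serpinh1 and Pcolce, whose levels followed the lysyl oxidases over the arrays, and to P4ha1, whose level did not. Each is the 250 bases before the annotated start, 5′ to 3′ on the strand of the gene, from RefSeq on the GRCm38.p6 build. Capitals mark GGGCGG (a GC box, a general promoter element) and ACGTG or GCGTG (the core of the hypoxia-response element), searched on both strands. Capitals that read CCGCCC are a GC box on the opposite strand, and those that read CACGT or CACGC are a hypoxia core on it. No matches overlap.
Serpinh1, chr7:99353240-99353489, minus strand: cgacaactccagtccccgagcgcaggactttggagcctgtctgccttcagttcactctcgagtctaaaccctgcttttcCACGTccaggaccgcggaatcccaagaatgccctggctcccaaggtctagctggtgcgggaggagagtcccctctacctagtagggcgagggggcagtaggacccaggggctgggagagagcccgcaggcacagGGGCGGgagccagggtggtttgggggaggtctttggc
Pcolce, chr5:137611405-137611654, minus strand: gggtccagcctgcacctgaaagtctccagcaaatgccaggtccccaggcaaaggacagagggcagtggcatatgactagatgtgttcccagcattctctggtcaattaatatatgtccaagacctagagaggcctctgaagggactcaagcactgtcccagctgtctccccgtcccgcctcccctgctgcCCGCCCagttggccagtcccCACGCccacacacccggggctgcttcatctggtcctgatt
P4ha1, chr10:59323046-59323295, plus strand: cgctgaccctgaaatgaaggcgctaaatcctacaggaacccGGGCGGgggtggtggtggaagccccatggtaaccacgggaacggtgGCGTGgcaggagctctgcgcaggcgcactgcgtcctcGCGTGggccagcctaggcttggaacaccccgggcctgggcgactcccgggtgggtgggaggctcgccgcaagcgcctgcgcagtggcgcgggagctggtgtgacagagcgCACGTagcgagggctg

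Each of these windows held 1 GC box, which 32.7% of the 32851 windows in the table hold. P4ha1 held 3 hypoxia cores, Serpinh1 and Pcolce 1 each, and 38.6% of all windows hold at least 1. The CCAAT box, the TATA box with the letters TATAAA and the heat-shock unit GAANNTTC were searched as well and were in none of the 3. Of all windows 33.8% hold CCAAT, 12.4% TATAAA and 6.69% GAANNTTC. A match is only a run of letters, and these windows were not measured here.

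The longest exposure, T3R1, was set against control first, since it is the comparison with control that lies within a slide. The lysyl oxidases were higher in T3R1 hearts, Lox by the widest margin of the 10 genes, and Pcolce and Serpinh1 were higher by smaller amounts. P4ha1, the catalytic subunit of the main prolyl 4-hydroxylase, was slightly lower. On control replicate 1 the lysyl oxidases stood near the T3R1 level.

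**Figure D1:**
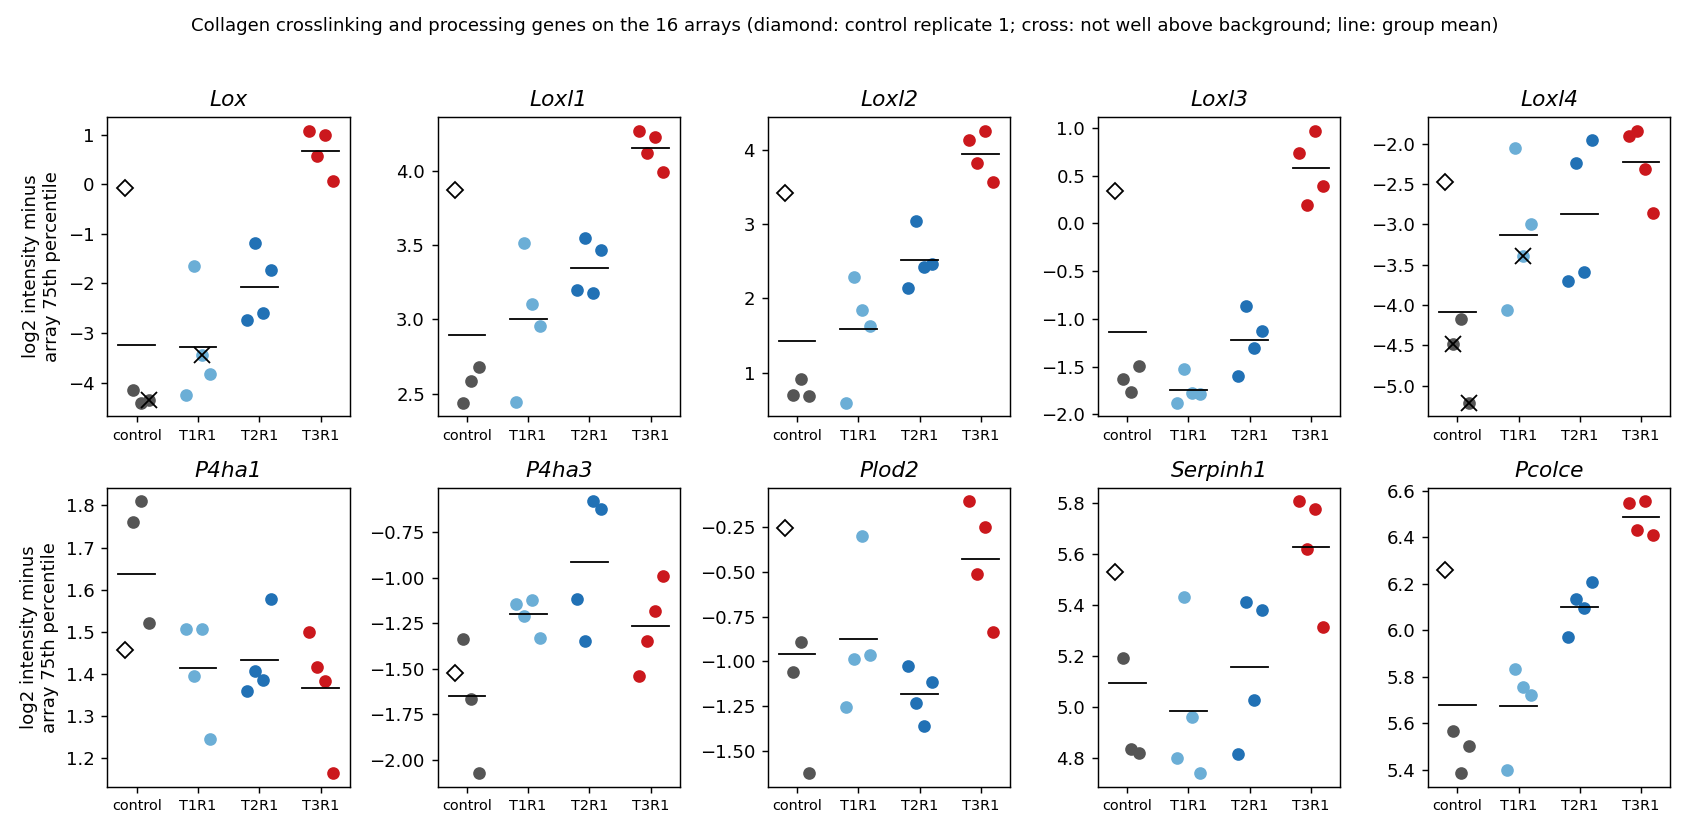
Level of each of the 10 genes on the 16 arrays, as log2 intensity minus the 75th percentile of the array, with the groups along the horizontal axis and a scale of its own in each panel. Lines are group means of 4 arrays, the open diamond is control replicate 1 and a cross marks a probe not well above background. For Lox the T3R1 arrays lie between 0.08 and 1.08, control replicate 1 at -0.07 and the other controls between -4.40 and -4.16.

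Lox, the founding member of the family, oxidises both collagen and elastin. Its tested probe, on chromosome 18, read -0.07, -4.16, -4.40 and -4.36 on the control arrays, -4.25, -1.65, -3.44 and -3.82 in T1R1, -2.75, -1.19, -2.60 and -1.72 in T2R1, and 1.08, 0.56, 1.00 and 0.08 in T3R1. Every T3R1 array was above every control array, but control replicate 1 lay only a little below the lowest of them, and control replicates 2 to 4 lay at the bottom of the range. In scanner units the 4 T3R1 arrays read 862, 560, 739 and 355, against 523 on control replicate 1 and 14.4, 12.9 and 12.9 on the others. The mean was 0.68 ± 0.46 in T3R1 and -3.25 ± 2.12 in control (SD, n = 4 each), a difference of 3.93 ± 0.83 (SE), or 15.2-fold. Without control replicate 1 the difference was 4.99 ± 0.53. The probe was not well above background on control replicate 4 and T1R1 replicate 3, and with a background correction that holds dim spots up (normexp) the difference was 2.28. The other Lox probe gave 3.22 ± 0.66.

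Loxl2, a secreted enzyme that crosslinks type IV as well as fibrillar collagen, had its highest mean in T3R1 as well. Its tested probe lies on chromosome 14 (70095254 to 70095313, mm9, as for all probe positions here) and read 3.41, 0.70, 0.92 and 0.69 in control, 0.60, 2.29, 1.85 and 1.62 in T1R1, 2.14, 3.04, 2.43 and 2.46 in T2R1, and 4.14, 3.82, 4.26 and 3.57 in T3R1. Among the arrays other than control replicate 1, T3R1 was highest, T2R1 next, and T1R1 reached from the control level into the range of T2R1. The group means were 3.95 ± 0.31 in T3R1 and 1.43 ± 1.33 in control (SD, n = 4 each), a difference of 2.52 ± 0.52 (SE), or 5.73-fold. Without control replicate 1 it was 3.18 ± 0.32. Of its 3 probes, 2 lay close together, at 2.52 and 2.57, and the third gave 1.55 ± 0.30.

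Loxl1, which is needed for elastic fibres, was well above background on all 16 arrays. Its probe on chromosome 9 (58138570 to 58138629) read 3.87, 2.44, 2.58 and 2.68 in control, 2.44, 3.51, 3.10 and 2.95 in T1R1, 3.19, 3.55, 3.18 and 3.47 in T2R1, and 4.27, 4.12, 4.23 and 3.99 in T3R1. The T3R1 arrays did not overlap with any other group. The difference between T3R1 and control was 1.26 ± 0.27 (SE, n = 4 each), or 2.39-fold, and 1.58 ± 0.19 without control replicate 1.

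Loxl3, a family member needed for palate and spine development in mice, was lowest in T1R1. On chromosome 6 (83001888 to 83001947) its probe read 0.34, -1.63, -1.77 and -1.49 in control, -1.88, -1.53, -1.78 and -1.79 in T1R1, -1.59, -0.87, -1.30 and -1.12 in T2R1, and 0.74, 0.20, 0.97 and 0.39 in T3R1. Control replicate 1 fell inside the T3R1 range, and T1R1 lay with control replicates 2 to 4. The difference was 1.71 ± 0.36 for T3R1 against control (SE, n = 4 each), or 3.28-fold, and 2.21 ± 0.19 without that array. Loxl4, on chromosome 19 (42667320 to 42667379), was dim throughout, ranging from -2.86 to -1.84 in T3R1 and from -5.21 to -2.47 in control, where 2 of 4 arrays were not well above background. Its difference of 1.86 ± 0.57 was 2.39 ± 0.51 without control replicate 1 and 0.53 with normexp, so that its size rests on how dim spots are treated.

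Pcolce, a secreted glycoprotein that binds procollagen and speeds its trimming, was close in level on the 4 T3R1 arrays. Its probe on chromosome 5 (138046336 to 138046395) read 6.26, 5.57, 5.39 and 5.50 in control, 5.40, 5.83, 5.76 and 5.72 in T1R1, 5.97, 6.13, 6.10 and 6.21 in T2R1, and 6.55, 6.43, 6.56 and 6.41 in T3R1. T3R1 overlapped with no other group, and T2R1 lay wholly above T1R1. The mean was 6.49 ± 0.08 in T3R1 and 5.68 ± 0.40 in control (SD, n = 4 each), a difference of 0.81 ± 0.16 (SE), or 1.75-fold, and 1.00 ± 0.10 without control replicate 1. Serpinh1, on chromosome 7 (106493971 to 106494030), read 5.31 to 5.81 in T3R1 and 4.82 to 5.53 in control. Those ranges overlapped through control replicate 1, which was the highest control. Its difference was 0.53 ± 0.20, or 0.68 ± 0.19 without that array.

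The enzymes that hydroxylate the chains differed among themselves. P4ha1 was the 1 gene of the 10 that was lower in T3R1. Its tested probe, on chromosome 10 (58835625 to 58835684), read 1.50, 1.42, 1.38 and 1.16 in T3R1 against 1.46, 1.76, 1.81 and 1.52 in control, a difference of -0.27 ± 0.10 (SE) that became -0.33 ± 0.10 without control replicate 1. On this probe control replicate 1 again read like T3R1, this time as the lowest control. The second P4ha1 probe gave -0.28 ± 0.11, and -0.28 ± 0.12 without that array. There control replicate 1, at -1.67, lay within the range of the other controls, -1.76 to -1.58. Plod2 is the lysyl hydroxylase that acts on the chain ends that are not cut off, and so decides which crosslink forms. Its probe on chromosome 9 (92502483 to 92502542) spanned -0.84 to -0.11 in T3R1 and -1.63 to -0.26 in control. The difference was 0.53 ± 0.26, or 0.77 ± 0.23 without control replicate 1, close to the values of Serpinh1. P4ha3, a less studied catalytic subunit, gave 0.38 ± 0.19 with its tested probe on chromosome 7 (107463120 to 107463179) and 1.76 ± 0.35 with its dimmer probe, which was above background on 12 of 16 arrays. They were 0.42 and 2.04 without control replicate 1. The probes of P4ha3 disagreed in size here and in sign elsewhere, as given with those comparisons.

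**Figure D2:**
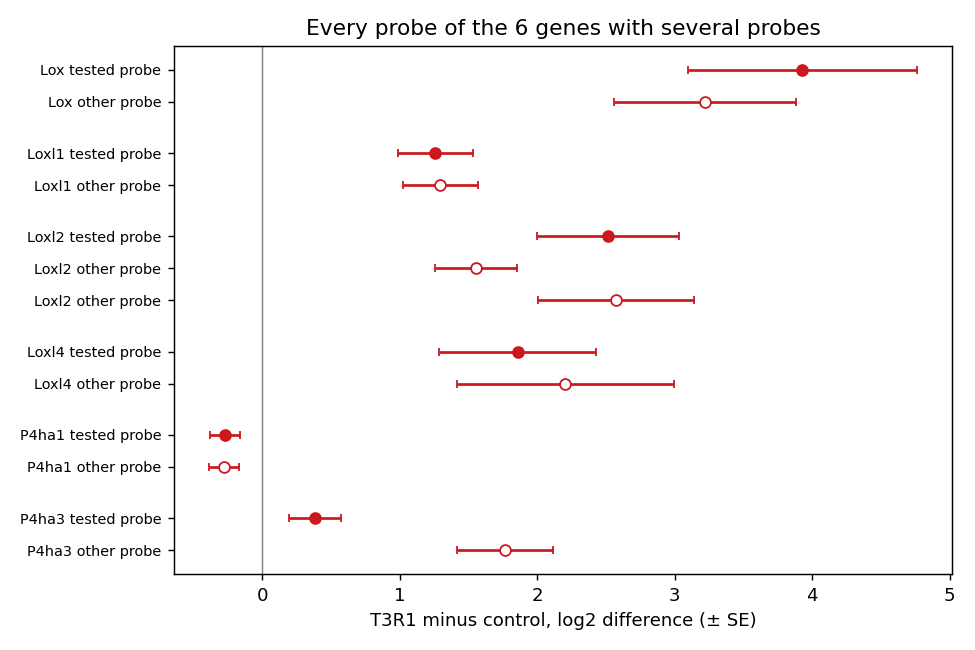
Difference between T3R1 and control (log2, ± SE, 4 arrays each) for each probe of the 6 genes with several probes; filled points are the probes used for the tested value. In this comparison the probes of a gene share the sign, and they lie furthest apart for P4ha3, at 0.38 and 1.76, and for Loxl2, at 1.55 to 2.57.

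In the fit over all 22648 features, 4 of the 10 genes were past an adjusted p of 0.05 in T3R1 against control (limma, Benjamini-Hochberg), namely Lox, Loxl2, Loxl3 and Pcolce, all higher, where 0.503% of all features were called higher. Loxl1 lay just outside, at an adjusted p of 0.051. The arrays of the groups did not overlap for Lox, Loxl1, Loxl2 and Pcolce, where 3.18% of all features lay higher in this way. The median difference of the 10 genes was 1.03, beside -0.08 over all features. The tested Lox and Loxl4 probes passed the filter on dim probes only through T2R1 and T3R1, where they were high. Since the genes were also picked on these arrays, nothing is read from these counts. They also rest on single arrays: leaving out control replicate 2, 3 or 4, any T3R1 array, T1R1 replicate 4 or T2R1 replicate 2, 3 or 4 left 0 of the 10 past the threshold, with differences of the same sign throughout, and without control replicate 1 they became 8 higher and 1 lower (P4ha1), where 10.2% of all features were higher and 19.2% lower. P4ha3 alone did not pass then. With quantile normalization, scaling to the array median, no filter on dim probes or only those groups in the fit, 0 of the 10 passed, and with normexp or the authors' values 5 did. Without that array the T3R1 arrays lay above every control for those 8 genes, where 14.4% of all features did, and below every control for P4ha1, where 26.2% did, and the median was 1.29, beside -0.13 over all features.

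The shorter exposures were set against control next, and both lay on the other slide. After 1 day the lysyl oxidases other than Loxl3 ranged from -0.04 for Lox to 0.96 ± 0.57 for Loxl4, and Loxl3 was at -0.60 ± 0.36. Without control replicate 1, Lox was at 1.02 ± 0.53, Loxl1 at 0.43 ± 0.19, Loxl2 at 0.82 ± 0.32, Loxl4 at 1.49 ± 0.51 and Loxl3 at -0.11 ± 0.19, and the sign of Lox turned. In the same way Plod2 was at 0.08, or 0.32 without that array, Serpinh1 at -0.11, or 0.03, Pcolce at -0.00, or 0.19, and P4ha1 at -0.22, or -0.28. None of the 10 genes was past the threshold in T1R1, where 9.85% of all features were, and without control replicate 1 again none was, where 17.9% were. P4ha3, at 0.45 ± 0.19, was the 1 gene whose tested probe read higher on all T1R1 arrays than on any control, where 9.82% of all features did. The arrays almost touched, with T1R1 replicate 4 at -1.332 and control replicate 2 at -1.335. The other P4ha3 probe was at -0.19 ± 0.35 with overlapping arrays, the opposite sign. After 2 days Lox was at 1.18 ± 0.83, Loxl2 at 1.09 ± 0.52, Loxl4 at 1.21 ± 0.57, Loxl1 at 0.45 ± 0.27 and Pcolce at 0.43 ± 0.16. P4ha3 was the 1 gene past the threshold in T2R1, at 0.73 ± 0.19, where 14.8% of all features were called higher. Its other probe gave 0.59 and was not past it, and scaling each array to its median brought the tested probe to 0.35. The call was made under 20 of 24 alternatives, and it was lost with that scaling, with only T2R1 and control fitted, and without T2R1 replicate 3 or 4. Without control replicate 1, Lox (2.24), Loxl1 (0.78), Loxl2 (1.75), Loxl4 (1.75) and Pcolce (0.62) were past it as well, where 15% of all features were called higher. The median of the 10 genes was 0.04 in T1R1 and 0.44 in T2R1, and 0.38 and 0.70 without control replicate 1, beside -0.01 and 0.02 over all features.

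**Figure D3:**
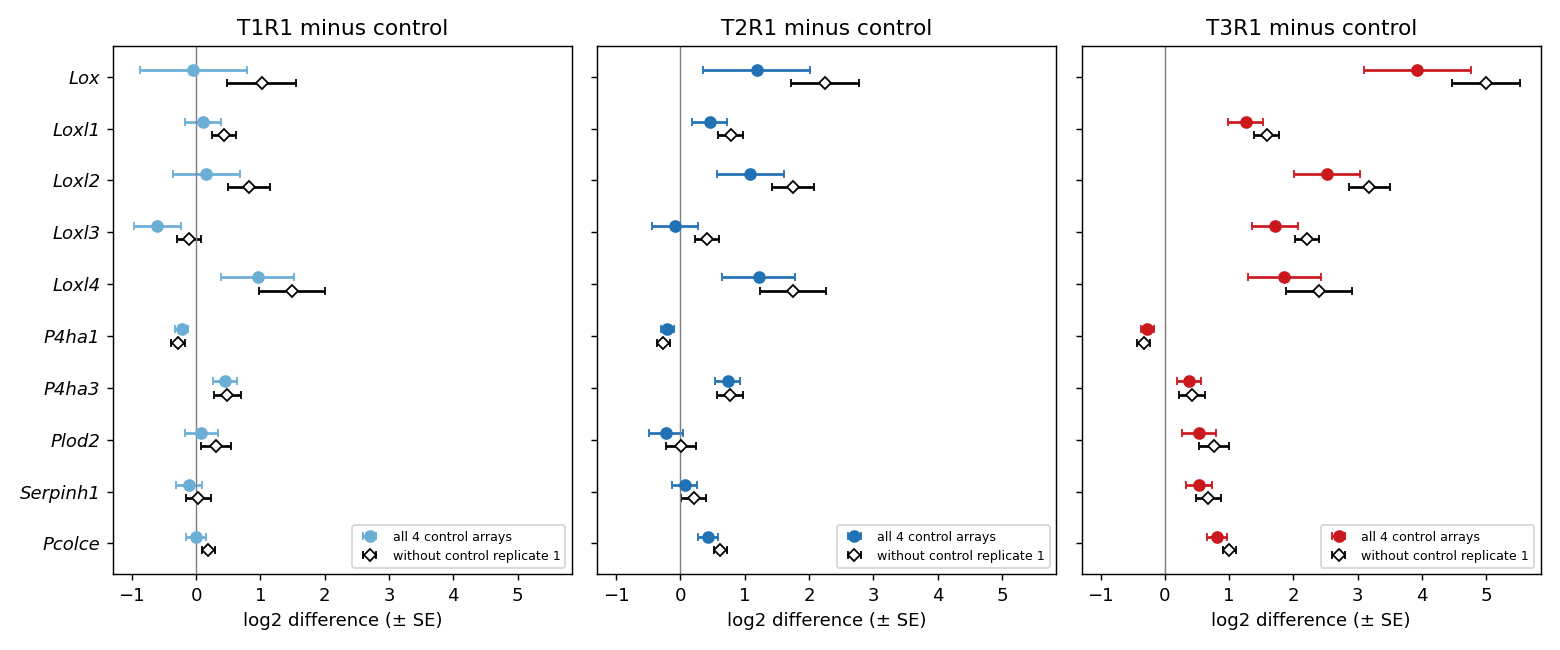
Difference from control for each gene (log2, ± SE), in T1R1, T2R1 and T3R1 from left to right, with all 4 control arrays (filled circles) and without control replicate 1 (open diamonds). The lysyl oxidases and Pcolce move to the right from T1R1 to T3R1, and leaving out control replicate 1 shifts most genes further right, as for Lox in T3R1, at 4.99 without it and 3.93 with it.

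The exposed groups were also set against each other. The differences use no control array, but the SE and the calls come from the fit of all 4 groups and so take in the spread of the controls. The SE of Lox was 0.49 without control replicate 1 and 0.83 with it. T2R1 against T1R1, within a slide, gave positive differences for 9 of the 10 genes, from 0.02 for P4ha1 to 1.23 ± 0.83 for Lox, and -0.31 ± 0.26 for Plod2. The T2R1 arrays lay above all T1R1 arrays for Pcolce alone, at 0.43 ± 0.16, where 5.09% of all features did so. No gene was past the threshold, which 0 of all 22648 features (0%) reached by limma although 1775 had an unadjusted p under 0.05. T3R1 against T1R1 gave 3.97 ± 0.83 for Lox, 2.36 ± 0.52 for Loxl2, 2.32 ± 0.36 for Loxl3, 1.15 ± 0.27 for Loxl1, 0.81 ± 0.16 for Pcolce and 0.65 ± 0.20 for Serpinh1. These 6 were past the threshold, where 7.63% of all features were called higher, and the 4 others were not. Serpinh1 passed under 15 of 24 alternatives and the other 5 under all 24. T3R1 against T2R1 gave 2.74 ± 0.83 for Lox, 1.80 ± 0.36 for Loxl3, 0.80 ± 0.27 for Loxl1 and 0.76 ± 0.26 for Plod2. These 4 were past the threshold, where 6.57% of all features were called higher. Loxl3 passed under all 24 alternatives, Lox under 20, and Loxl1 and Plod2 under 12 each. Leaving out T3R1 replicate 1 or 3, or T2R1 replicate 1 or 3, left 1 of the 10 past the threshold, leaving out T3R1 replicate 2, T2R1 replicate 2 or 4 or T1R1 replicate 4 left 2, and leaving out control replicate 1 gave 6, with Loxl2 and Pcolce added. In these last comparisons slide and exposure cannot be told apart, and comparisons that share a group are not independent of each other.

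Ordered by group mean, T3R1 was highest for 8 of the 10 genes. It was lowest for the tested probe of P4ha1, whereas on the other P4ha1 probe T1R1 was lowest, at -1.99 against -1.94 in T3R1. For the tested probe of P4ha3 T3R1 lay above control alone, whereas on the other P4ha3 probe T3R1 was the highest group, at -2.10 ± 0.45 (SD, n = 4). The order is therefore uncertain for P4ha3: T3R1 against T2R1 was -0.35 ± 0.19 on the tested probe and 1.17 ± 0.35 on the other. Below T3R1 the order control, T1R1, T2R1 held for Loxl1, Loxl2 and Loxl4, and T1R1 and control differed by less than the SD of the 4 controls for all but P4ha1 and P4ha3, but control replicate 1 sets most of that SD for the lysyl oxidases. Without it, the T1R1 means of Lox, Loxl1, Loxl2, Loxl4 and Pcolce lay above control by more than the SD of control replicates 2 to 4, which was 0.13 for Lox, 0.12 for Loxl1, 0.13 for Loxl2, 0.53 for Loxl4 and 0.09 for Pcolce. Plod2 had its lowest mean in T2R1, at -1.18 ± 0.15 (SD, n = 4), against -0.96 ± 0.56 in control.

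Over the 16 arrays the lysyl oxidases varied together, with Pearson correlations from 0.978 to 0.987 among Lox, Loxl1 and Loxl2 and from 0.618 upward with Loxl3 and Loxl4. Pcolce correlated with the 5 lysyl oxidases at 0.79 to 0.976 and Serpinh1 at 0.784 to 0.91. Plod2 lay lower, at 0.558 to 0.663, P4ha3 at -0.04 to 0.332 and P4ha1 at -0.51 to -0.34. The 16 arrays fall into groups and share slides and scaling, so these values describe the arrays and carry no test. Within T1R1 and T2R1, as deviations of 8 arrays from their group means, the correlations were 0.843 to 0.948 among Lox, Loxl1 and Loxl2, 0.622 to 0.905 for Pcolce and 0.717 to 0.948 for Serpinh1 with the lysyl oxidases. The same genes were high together on single hearts of a group, as on T1R1 replicate 2, which had the highest Lox, Loxl1, Loxl2, Loxl4 and Serpinh1 of T1R1.

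The search for like features covered those outside the 10 with a gene name and a value on all 16 arrays. It left out regions and most transcript identifiers. Most like the mean of the 10 genes over the 16 arrays were Efemp2 (fibulin-4, which brings lysyl oxidase to elastin, r = 0.983), Crabp2 (a retinoic acid binding protein, 0.982), Abcc3 (a transporter, 0.98), Cd68 (a macrophage lysosome protein, 0.976) and Emp1 (a membrane protein, 0.975). Closest to Loxl2 were Mfap5, of microfibrils (0.99), and Postn, periostin (0.985), to Pcolce Col3a1 (0.978) and Col1a1 (0.976), to Lox Efemp2 (0.986), to Loxl1 the matricellular Thbs4 (0.987) and to Loxl3 Leprel2 (0.985). P4ha1 was most like BC055308 and Snx16, at 0.872 and 0.866, and Serpinh1 most like Cand1 at 0.958.

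Genes of the same pathway outside the 10 were taken from a list of 37 names, which holds old and current symbols of some genes. Of these names 31 were on the array and 29 were tested. In T3R1 hearts 6 of the 29 rose and none fell (limma, adjusted p from 0.0238 to 0.0443), where 0.503% of all features were called higher, with a median of 0.40, beside -0.08 over all features. Bmp1, the procollagen C-proteinase whose cut Pcolce speeds, rose by 0.70 ± 0.12 (SE, n = 4 each, adjusted p = 0.0238). It read 3.23, 2.99, 3.15 and 3.11 in T3R1 against 2.85, 2.32, 2.22 and 2.30 in control, with no overlap. Adamts2 and Adamts14, which trim the amino end, rose by 1.29 ± 0.26 and 1.02 ± 0.21 (adjusted p = 0.039 and 0.0443). Leprel2, a prolyl 3-hydroxylase, rose by 0.72 ± 0.15, Crtap, a partner in the prolyl 3-hydroxylase complex, by 0.50 ± 0.09 and Fkbp10, a collagen foldase, by 0.75 ± 0.15. Without control replicate 1, 15 rose and 3 fell, where 10.2% of all features rose and 19.2% fell. These calls lie close to the threshold: without control replicate 2 only 3 of all 22648 features passed.

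Other steps of the pathway did not pass with all arrays. The disulfide isomerase P4hb, which is the second subunit of prolyl 4-hydroxylase, was at 0.66 ± 0.16 (adjusted p = 0.0613), the lysyl hydroxylase Plod3 at 0.53 ± 0.15 and the collagen-degrading protease Ctsk at 1.04 ± 0.25. Pcolce2 (-0.06 ± 0.10), Plod1 (0.11 ± 0.13) and P4ha2 (0.10 ± 0.10) were close to 0 and did not pass either way. In T2R1 against control 3 of the 29 rose with all arrays, a share no higher than the 14.8% of all features called higher. These were Lepre1, a prolyl 3-hydroxylase, which rose by 0.34 ± 0.10, the procollagen protease Tll1 by 0.61 ± 0.18 (adjusted p = 0.0534 without control replicate 1) and Creb3l1, a transcription factor that drives collagen genes in bone, by 0.68 ± 0.11. In T1R1 Creb3l1 alone of the 29 rose, by 0.38 ± 0.11 (limma, adjusted p = 0.0475), where 9.85% of all features were called in either direction. It missed the threshold without control replicate 1. In T3R1 it was at 0.26 ± 0.11 and did not pass. Without control replicate 1, 7 of the 29 rose and 1 fell in T2R1. There 15% of all features were called higher, and 2124 of 22648 lower. In T1R1 none rose and 1 fell without that array, where 17.9% of all features were called in either direction.

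**Figure D4:**
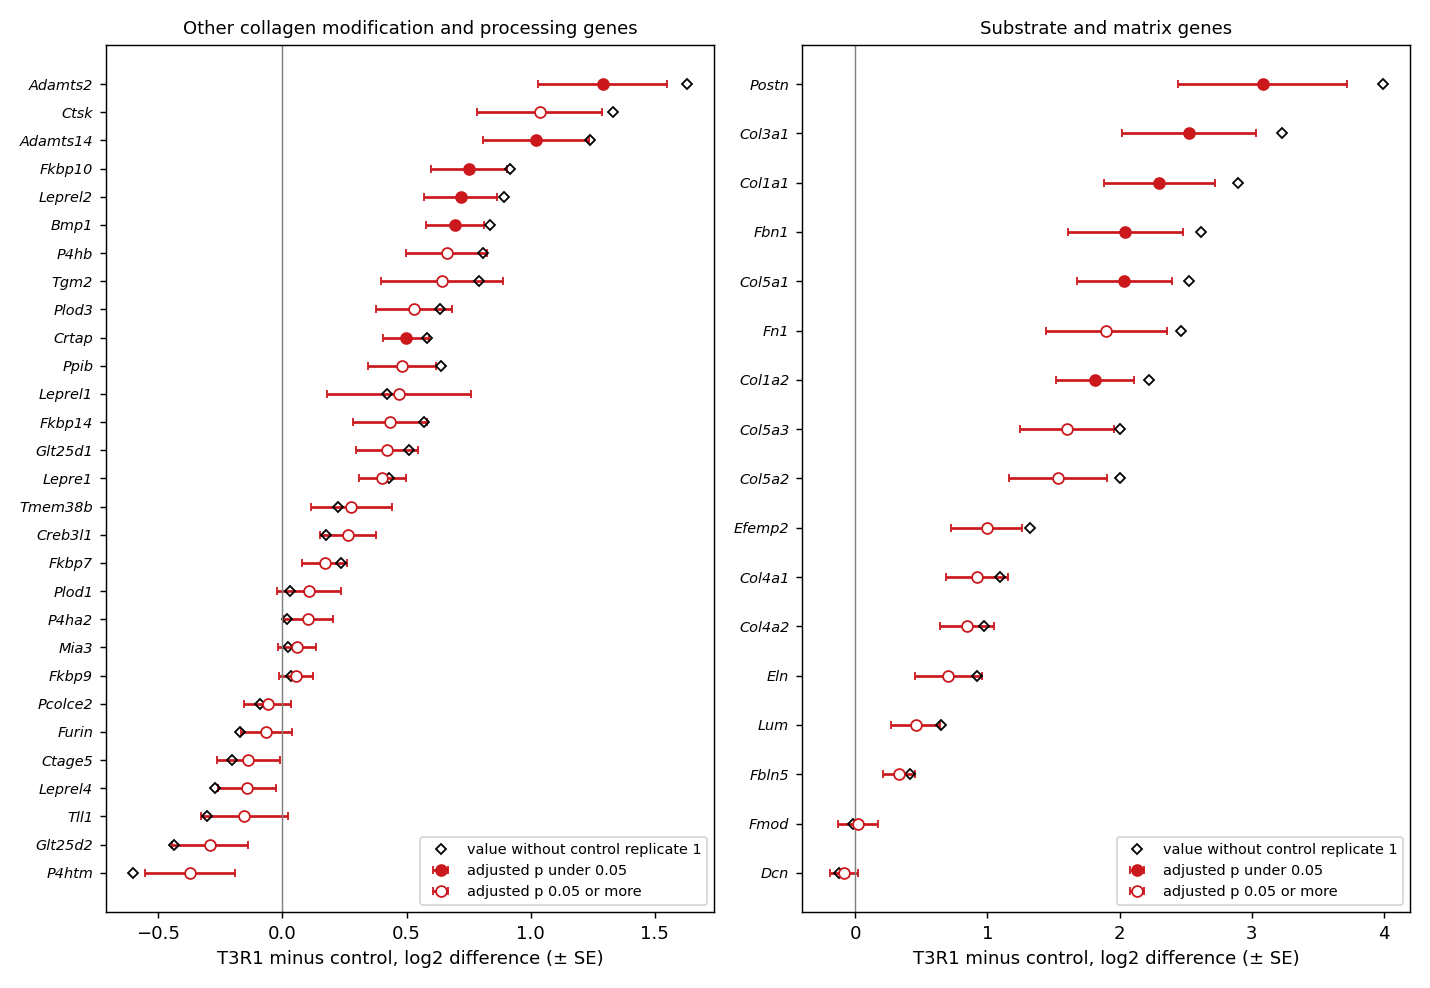
Difference between T3R1 and control (log2, ± SE, 4 arrays each) for the other pathway genes tested (left, 29) and for the substrate and matrix genes tested (right, 17). Filled points have an adjusted p under 0.05, 6 on each side, all higher in T3R1, and diamonds show the value without control replicate 1.

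Genes of the substrates were higher in T3R1 hearts as well; their direction on these arrays was known when the list was drawn up. Of 17 substrate and matrix genes tested, 6 rose in T3R1 and none fell, and without control replicate 1 it was 15 rising and none falling, where 0.503% and 10.2% of all features were called higher; the median was 1.53 and 2.00. Col1a1 and Col1a2, the chains of type I collagen, rose by 2.30 ± 0.42 and 1.81 ± 0.29 (limma, adjusted p = 0.0275 and 0.0231), Col3a1 by 2.52 ± 0.50, Col5a1 by 2.04 ± 0.36, the microfibril gene Fbn1 by 2.04 ± 0.44 and Postn by 3.08 ± 0.64. Col3a1 read 6.94, 6.34, 6.65 and 6.30 in T3R1 and 6.15, 3.12, 3.40 and 3.46 in control, the same placing of control replicate 1 as for Lox. Eln, the elastin gene, was at 0.71 ± 0.26 and did not pass. In T1R1 and T2R1 none of the 17 passed against control by limma. Of all features 9.85% were called in T1R1 and 14.8% were called higher in T2R1. Without control replicate 1, 1 passed in T1R1, where 17.9% of all features were called in either direction. In T2R1 9 passed then, where 15% were called higher, and all of these genes were higher.

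A further list held 17 genes of the hypoxia response, since Lox, P4ha1 and Plod2 are known targets of it in other settings. None of the 17 passed in T3R1 against control by limma, and their median was -0.10. With control replicate 1 left out, 2 rose, Car9 and Hif1a, and 3 fell, Epas1, Egln1 and Hk2, where 10.2% of all features rose and 19.2% fell. Car9, a carbonic anhydrase, was at 1.88 ± 0.58 (adjusted p = 0.0955), or 2.51 ± 0.46 without that array. Bnip3, a mitophagy receptor, rose in T1R1 by 0.65 ± 0.16 (limma, adjusted p = 0.0187), and it was at -0.16 ± 0.16 in T3R1. It was the 1 gene of the 17 called in T1R1 against control, where 9.85% of all features were called in either direction. Per array the mean of the list stayed between -0.06 and 0.10 against control replicates 2 to 4 over all 16 arrays. That mean hides genes that went both ways, from -0.85 to 2.51 in T3R1 against control without control replicate 1. The part of hypoxia in the levels of the 10 genes was not tested. Of 11 genes of the TGF-beta axis none passed in T3R1 by limma, with a median of 0.50. Without control replicate 1, 7 rose, where 10.2% of all features did. In T1R1 and T2R1 none of the 11 passed with all arrays, where 9.85% of all features were called in T1R1 and 14.8% were called higher in T2R1. Without that array 2 rose in T1R1, where 17.9% of all features were called in either direction. In T2R1 3 rose then, where 15% were called higher. T3R1 against T1R1 had 1 of the 11 higher and T3R1 against T2R1 had 4, where 7.63% and 6.57% of all features were called higher. None of the 11 fell in these comparisons. Relative to control replicates 2 to 4 their mean per array was 0.86 to 1.26 in T3R1 and 1.24 on control replicate 1. It was 0.24 to 0.99 in T2R1 and 0.01 to 1.03 in T1R1. The part of this axis was not tested either. Ltbp2, a latent TGF-beta binding protein, was at 2.51 ± 0.58 in T3R1 (adjusted p = 0.056).

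In whole hearts fewer cells of a type and less RNA per cell cannot be told apart, so markers of the cells that could carry these genes are given beside them. Relative to control replicates 2 to 4 the 5 lysyl oxidases averaged 2.48 to 3.11 on the T3R1 arrays, 2.46 on control replicate 1, 0.90 to 1.90 in T2R1 and 0.01 to 1.56 in T1R1. Fibroblast markers, 6 of 6 tested, averaged 0.18 to 0.36 in T3R1 and 0.30 on control replicate 1. None passed in T3R1 against control with all arrays, with a median of 0.16. Without control replicate 1, 3 of the 6 rose, where 10.2% of all features did. Cardiomyocyte markers averaged -0.78 to -0.22 in T3R1 and -0.96 on control replicate 1. None of the 6 passed in T3R1 with all arrays by limma, and 4 fell without control replicate 1, where 19.2% of all features fell. Smooth muscle and mural markers averaged 0.20 to 0.36 in T3R1, 0.31 on control replicate 1 and -0.50 to -0.28 in T1R1. None of these 6 passed in T3R1 against control with all arrays, and 2 rose and 1 fell without control replicate 1. Endothelial markers averaged -0.38 to -0.16 in T3R1 and -0.30 on control replicate 1. For epicardial markers it was -0.12 to 0.29 and 0.56. Proliferation markers ran in the order of the lysyl oxidases, with -0.41 to 1.29 in T1R1 and 1.20 to 2.82 in T2R1. None of the 5 passed in T3R1 against control with all arrays, at a median of 3.04. All 5 rose without control replicate 1, where 10.2% of all features did. T3R1 against T1R1 had all 5 higher and T3R1 against T2R1 had 1, where 7.63% and 6.57% of all features were called higher. These counts were 3 and 2 for the 6 fibroblast markers, 3 and 3 for the 6 smooth muscle and mural markers, and 0 and 0 for the 6 cardiomyocyte markers. In these 2 comparisons slide and exposure cannot be told apart. The part of any of these in the levels of the 10 genes was not tested.

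**Figure D5:**
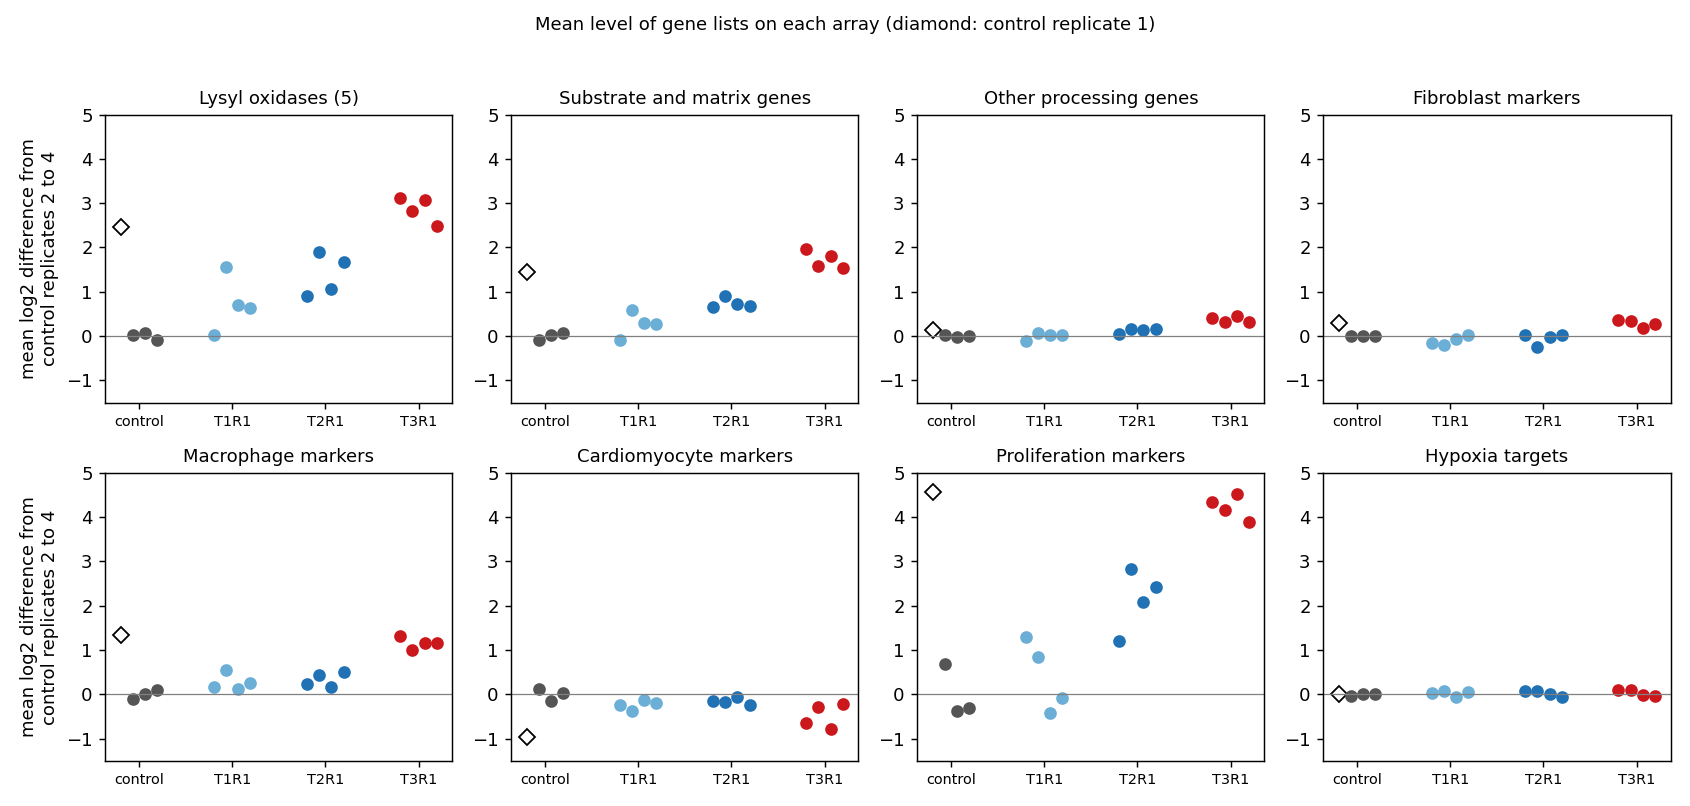
Mean log2 difference from control replicates 2 to 4 on each array, for the lysyl oxidases and for 7 other gene lists, with the groups along the horizontal axis and the same vertical scale in every panel. Control replicate 1 (diamond) lies with T3R1 for the lysyl oxidases, at 2.46 against 2.48 to 3.11, and for the proliferation markers, at 4.58 against 3.88 to 4.51. The panel of hypoxia targets, which also holds the regulators Hif1a and Epas1, shows a mean over genes that went both ways.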

How the data were processed

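RNA of 16 single hearts was read on 1-colour Agilent arrays. Per the file headers, Agilent Feature Extraction 10.7.3.1 made the processed intensity of each spot by background subtraction and spatial detrending, without scaling between arrays; the mean spot intensity and local background intensity were left uncorrected, and other columns hold flags of 0 or 1. The value table the authors deposited holds log2 values that share 1 distribution over the arrays, rank like the mean spot intensity and have a median of 6.10; the sources used here do not give how it was made.

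Outlier spots were left out, log2 intensities were set to the 75th percentile of each array, and replicate spots were averaged. A probe was kept if every array of some group read it well above background (31390 of 55681), and the probe with the highest mean stood for each gene name (22648 features). A model of the 4 groups was fitted to all of them with limma 3.58.1 in R 4.3.3, with two-sided p values adjusted by Benjamini-Hochberg at a threshold of 0.05. The fit was tested on simulated data with independent noise, which held no array that stood apart from its group and no slide effect. Nothing in the labels states pairing or separate litters, so p values measure the spread between these arrays.

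The 10 genes, the lists and the tests were chosen with earlier results of these data known. Named are all 10 genes with every probe, list genes past the threshold in any of the 6 comparisons, the 3 of each list with the smallest adjusted p in T3R1 against control, and the features with a gene name most like the genes over the arrays. Pcolce2, Plod1, P4ha2, Hif1a, Egln1, Hk2 and the genes of single markers were named after their values were seen. Alternatives covered background correction, scaling, the authors' values, the dim filter, the groups in the fit, the prior, the replicate block, each array left out and each other probe; list counts without control replicate 1 were added after the data were seen. Promoters came from RefSeq (GRCm38.p6).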

Additional observations from a re-analysis of the deposited data

Results flagged for a closer look

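In 4 of the 40 combinations of gene and group, 1 array lay far from the other 3, by a gap over 0.829 of the whole range of the group (Dixon's critical value for 4 samples), where chance flags about 1 in 20. All 4 are control replicate 1, which read -0.0661 for Lox, 3.87 for Loxl1, 3.41 for Loxl2 and 0.342 for Loxl3. The other controls lay at -4.40 to -4.16 for Lox, 2.44 to 2.68 for Loxl1, 0.69 to 0.92 for Loxl2 and -1.77 to -1.49 for Loxl3.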

How the results depend on the processing

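No difference that had passed the threshold changed sign under any of 24 alternatives or on another probe. The counts of features moved more. T3R1 against control had 157 features past the threshold (114 higher, 43 lower), and 21 when arrays were scaled to their medians (13 and 8), 480 with an intensity trend and robust prior, 17 with no dim filter, 300 with normexp, 2 with only those groups fitted and 363 on the authors' values; the cause was not tested. T1R1 had 2231 (1755 and 476), and 10687 with median scaling (621 and 10066), 1418 with quantile normalization (745 and 673), 1102 with normexp and 972 with only those groups fitted; T2R1 had 4167 (3354 and 813), and 9102 (1382 and 7720) with median scaling, 3045 (1882 and 1163) with quantile normalization and 2598 with normexp. T3R1 against T1R1 had 5183 (1729 and 3454), 8746 (7463 and 1283) with median scaling and 4514 (2086 and 2428) with quantile normalization; T3R1 against T2R1 had 6104 (1489 and 4615), 7683 (5493 and 2190) and 5391 (2019 and 3372). Median scaling moved the median of all features to -0.44 in T1R1 and -0.37 in T2R1 against control and to 0.33 in T3R1 against T1R1, and the median of the 10 genes to -0.394, 0.0541 and 1.26. Leaving out each array in turn gave 1339 to 4046 features in T1R1, 2802 to 5514 in T2R1 and 3 to 6672 in T3R1 against control, 0 to 0 in T2R1 against T1R1, 3481 to 7097 in T3R1 against T1R1 and 4193 to 8303 in T3R1 against T2R1. The highest count came without control replicate 1 in all of these but T2R1 against T1R1, the 3 without control replicate 2 and the 1339 without T1R1 replicate 4. The median of the 10 genes then ran from -0.11 to 0.38, 0.34 to 0.70, 0.93 to 1.29, 0.23 to 0.50, 0.65 to 1.06 and 0.56 to 0.86. Replicate numbers do not pair the arrays: deviations of same-numbered arrays correlated between -0.32 and 0.39, and 5 of 16 arrays matched their own number best; with the replicate block T3R1 against control had 42 features and 0 of the 10 genes past the threshold. Few arrays and dim Lox and Loxl4 probes limit these values.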
